A study of Mus musculus with 9 samples.

Results

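The 9 CC chemokine ligands described here are Ccl2, Ccl3, Ccl4, Ccl5, Ccl6, Ccl7, Ccl8, Ccl9 and Ccl12, taken by name from the 25361 genes of the deposited count table. All 9 were found, and all 9 were among the 9009 genes deep enough to test. They were chosen by name, with their measured levels and fold changes in these same libraries already known. Their levels and fold changes are therefore given as a description, and a call (an adjusted p under 0.05 over all 9009 tested genes) is not independent evidence for any of them. Ccl12, the lowest of the 9, had 236 counts over the 9 libraries, and none of the 14 other CC ligands in the table was deep enough to test.

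Gene expression was measured in cells that CD8a magnetic beads recovered from MC38 tumours, a mouse colon carcinoma line grown under the skin for 21 days. The hosts were wild-type male C57BL/6N mice in 3 groups of 3 libraries. The aged restricted group was 20 months old and ate 70% of what freely fed mice eat. The aged ad libitum group had the same age and free access to food. The young ad libitum group, also with free access to food, was 5 months old. The series describes the replicates as biological and independent, and whether a library holds 1 animal or several is not given in the sources used here.

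CC chemokines are small secreted proteins, named for a pair of adjacent cysteines, that draw leukocytes along a gradient through G protein-coupled receptors. Tumour cells, fibroblasts and macrophages secrete Ccr2 ligands that draw monocytes out of the blood. Activated macrophages and T cells secrete other CC ligands, among them those of Ccr1. Many of these genes are switched on by inflammatory signals through NF-kappaB and AP-1, and their mRNAs are short-lived.

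The libraries carried transcripts of several cell types, although they are labelled as CD8 T cells. The summed level of 20 monocyte and macrophage genes ran from 9906 to 11317 CPM (counts scaled to the library total) in aged restricted mice, from 2640 to 7170 CPM in aged ad libitum mice and from 4770 to 5194 CPM in young mice. None of the 20 was at 0 in all libraries. The summed level of 13 T cell genes ran from 285 to 491 CPM, from 141 to 481 CPM and from 67.3 to 292 CPM in the same order of groups, and none of the 13 was at 0 in all libraries. Cd8a, the bead target, had 151, 95 and 70 counts over the 3 libraries of these groups. Total counts ran from 810662 to 1258575 per library, so 1 count was worth 0.795 to 1.23 CPM. These are bulk samples, in which fewer cells of a type and less RNA per cell cannot be told apart, and which cells made a ligand was not measured.

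The 9 genes lie on chromosome 11 in 2 stretches. In the file's coordinates the first runs from the start of Ccl2 at 81926397 through Ccl7 and Ccl12 to the end of Ccl8 at 82007625, all on the plus strand. The other runs from Ccl5, with its left edge at 83416604, through Ccl9, Ccl6 and Ccl3 on the minus strand to Ccl4 on the plus strand, which ends at 83555509. The build of these coordinates is not established. The processing notes name GRCm38, yet for every ligand except Ccl4 the left edge in RefSeq's GRCm38.p6 lies 109172 to 109180 bases further along. No other gene of the table overlaps any of the 9.

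All 9 ligands had a higher fitted level in aged restricted mice than in either ad libitum group. Against aged ad libitum mice the call was reached by Ccl2, and against young mice by Ccl9, Ccl3 and Ccl4. With age alone, no ligand was called by edgeR's quasi-likelihood test. The largest fold changes, those of Ccl8 and Ccl6, went with the widest spread between libraries. They were not called by edgeR's robust fit, and against young mice DESeq2 called both. Ccl5 and Ccl12 had the smallest fitted fold changes in both comparisons of restricted mice.

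**Figure D1:**
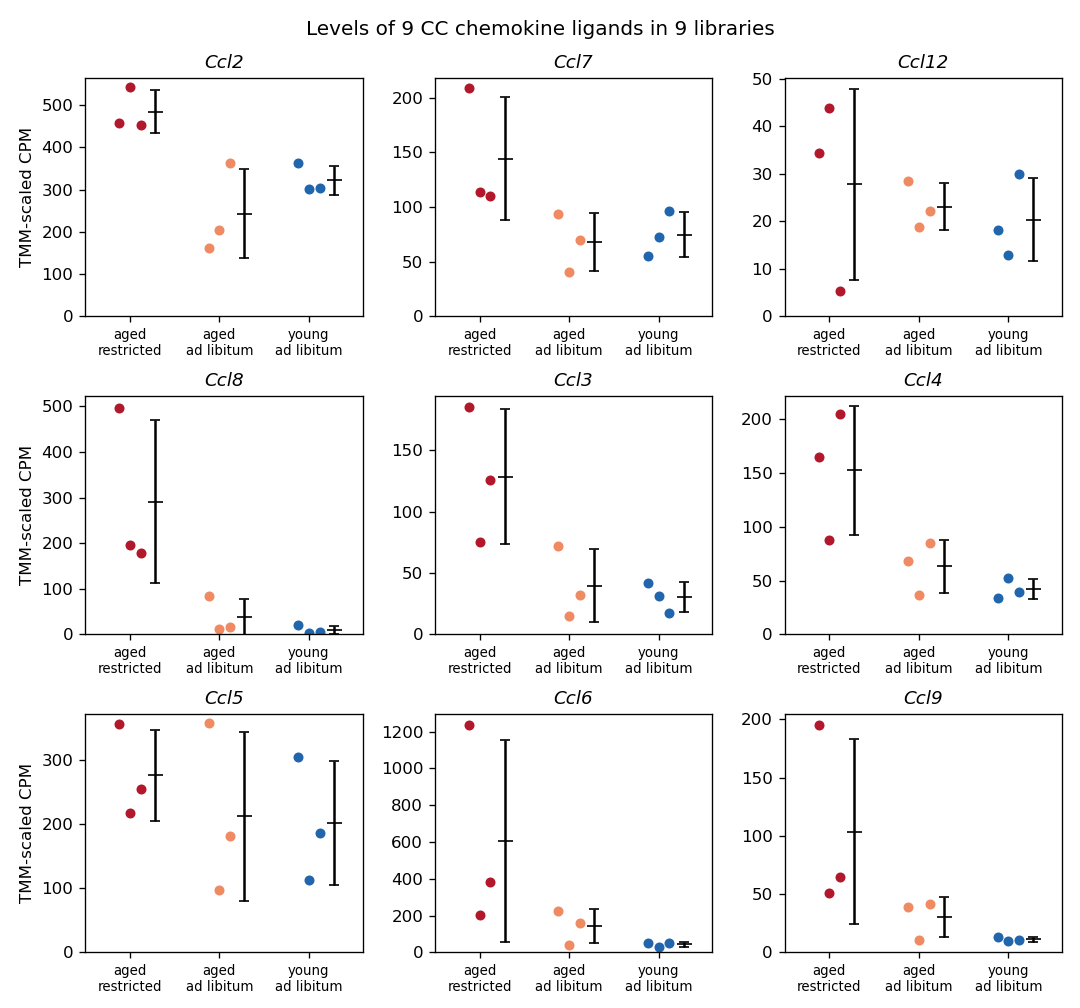
Level of each ligand in TMM-scaled CPM (CPM after edgeR's trimmed-mean correction of library size) on a linear axis from 0. Each dot is 1 library, and the bar beside each group is the mean ± SD of 3 libraries, drawn down to 0 where it would reach below. For Ccl8 the aged restricted libraries sit between 179 and 497 CPM, above every aged ad libitum and young library, while for Ccl12 the groups overlap.

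Ccl2, Ccl7 and Ccl12 are ligands of Ccr2, the receptor that brings monocytes into inflamed tissue. Ccl2, the main monocyte attractant of many tumours, stood at 457, 543 and 453 TMM-scaled CPM in the aged restricted libraries, at 162, 205 and 363 CPM in aged ad libitum mice and at 362, 300.4 and 303 CPM in young mice. All 3 restricted libraries were above all 6 others. The young and aged ad libitum groups overlapped, because aged ad libitum replicate 3 was as high as the young libraries.

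Ccl2 averaged 484 ± 50.7 CPM in aged restricted mice and 243 ± 106 CPM in aged ad libitum mice (SD, n = 3 each). It rose by 1.00 ± 0.24 on the log2 scale (SE), a 1.99-fold difference, with an edgeR adjusted p of 0.0368. This was the 1 call among the 9 ligands in that comparison, in which 0.944% of all 9009 genes were called, 0.688% higher and 0.255% lower. The call was lost, in edgeR's test, without aged restricted replicate 1 (adjusted p = 0.0702) or 3 (0.0725), aged ad libitum replicate 1 (0.112) or 2 (0.202), or young replicate 2 (0.0566) or 3 (0.0515). It was also lost with scaling by library totals (0.0846) and with only the 2 groups in the model (0.116), and without robust estimation (0.0658), so it was lost in 9 of 17 alternatives. Against the young mean of 322 ± 35.0 CPM, the restricted level was 0.59 higher on the log2 scale, with an edgeR adjusted p of 0.284.

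Ccl7, a second monocyte attractant encoded beside Ccl2, stood at 209, 114 and 110.3 CPM in aged restricted mice, at 93.6, 40.2 and 70.1 CPM in aged ad libitum mice and at 55.4, 72.5 and 96.4 CPM in young mice. The restricted libraries were again above all 6 others. The log2 fold change was 1.07 ± 0.34 against aged ad libitum mice (edgeR adjusted p = 0.145) and 0.94 ± 0.33 against young mice (0.188), so neither was called. Without the filter on low counts, edgeR's adjusted p against aged ad libitum mice was 0.0427.

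Ccl12, a Ccr2 ligand of the mouse, was the lowest of the 9 in counts. It stood at 34.3, 44.0 and 5.34 CPM in aged restricted mice, at 28.5, 18.8 and 22.1 CPM in aged ad libitum mice and at 18.2, 12.9 and 30.1 CPM in young mice. Aged restricted replicate 3 was the lowest of all 9 libraries, with 6 counts, and replicate 2 was the highest, with 67. The 95% interval of the restricted-minus-aged ad libitum difference, -0.93 to 1.47 on the log2 scale, leaves room for a change of the size seen for Ccl2. The fitted difference was 0.27, and -0.25 without aged restricted replicate 2.

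Ccl8, which in mice acts on Ccr8, showed the largest differences of the 9. It had 449, 299 and 201 counts in aged restricted mice, 82, 9 and 14 counts in aged ad libitum mice and 25, 5 and 7 counts in young mice. In TMM-scaled CPM these were 497, 196 and 179 in aged restricted mice, 83.4, 12.1 and 17.2 in aged ad libitum mice and 20.7, 4.03 and 6.19 in young mice. Replicate 1 was the highest library of every group, and the lowest restricted library was above the highest of the other groups.

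The fitted log2 fold change of Ccl8 was 2.90 ± 0.86 against aged ad libitum mice (edgeR adjusted p = 0.255) and 4.80 ± 0.97 against young mice (0.0734). The robust fit gave Ccl8 few degrees of freedom, 6.93 against 27.5 for Ccl2. Without robust estimation, a setting added after the data were seen, edgeR's adjusted p was 0.00782 against aged ad libitum mice and 4.62e-05 against young mice. DESeq2 called Ccl8 against young mice (adjusted p = 8.74e-05). Without aged ad libitum replicate 1, edgeR's adjusted p was 0.00603 against aged ad libitum mice, where the log2 fold change was 4.30, and 3.98e-04 against young mice, where it was 4.79. Without aged restricted replicate 1 edgeR's adjusted p against young mice was 0.0282, with a log2 fold change of 4.17, and with only those 2 groups in the model it was 0.00616. Without young replicate 1 the log2 fold change was 5.80 (edgeR adjusted p = 0.0936), the highest of the 17 alternatives.

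Ccl8 and Ccl12 are neighbours, and their start regions from RefSeq (GRCm38.p6) are shown. The restricted libraries stood above all others for Ccl8 and overlapped them for Ccl12. Each line gives 100 bases before to 50 after the start of the gene, 5′ to 3′ on the plus strand, at chr11:82115085-82115234 for Ccl8 and chr11:82101745-82101894 for Ccl12, and capitals mark TATAAA.
Ccl8: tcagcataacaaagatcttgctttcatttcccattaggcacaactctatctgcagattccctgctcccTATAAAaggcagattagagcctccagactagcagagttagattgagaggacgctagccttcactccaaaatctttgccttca
Ccl12: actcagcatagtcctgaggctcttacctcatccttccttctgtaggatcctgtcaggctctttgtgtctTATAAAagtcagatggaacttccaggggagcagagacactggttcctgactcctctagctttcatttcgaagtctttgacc
TATAAA, the core of the TATA box where the basal transcription machinery binds, begins at base -32 of Ccl8 and at base -31 of Ccl12. Over 36 aligned positions from there, 28 bases (77.8%) are the same in both. TATAAA was found on either strand in 13.6% of the 32851 windows of 300 bases in the RefSeq table.

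Ccl3, Ccl4 and Ccl5 draw monocytes, macrophages and effector T cells, and Ccl3 and Ccl5 act on Ccr1. Ccl3, an inflammatory protein of activated macrophages, stood at 185, 74.8 and 125 CPM in aged restricted mice, at 72.2, 14.75 and 32.0 CPM in aged ad libitum mice and at 42.2, 31.4 and 17.7 CPM in young mice. The lowest restricted library was just above the highest aged ad libitum library.

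Ccl3 averaged 128 ± 55.1 CPM in aged restricted mice and 30.4 ± 12.3 CPM in young mice (SD, n = 3 each). It rose by 2.06 ± 0.46 on the log2 scale against young mice (edgeR adjusted p = 0.0153), in a comparison in which 1.94% of all 9009 genes were called 1.11% were called higher and 0.833% lower. The call was lost in edgeR's test without aged restricted replicate 1 (adjusted p = 0.0880), young replicate 2 (0.0813) or young replicate 3 (0.0949). Against aged ad libitum mice the log2 fold change was 1.66 ± 0.46, and the edgeR adjusted p of 0.0788 missed the threshold. DESeq2 called that difference (adjusted p = 0.0416), and so did edgeR without the filter on low counts (0.00114), without aged restricted replicate 2 (0.0245) or aged ad libitum replicate 1 (0.00516).

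Ccl4, a macrophage inflammatory protein like Ccl3 and its neighbour in the genome, stood at 165, 87.3 and 205 CPM in aged restricted mice, at 68.2, 36.2 and 84.8 CPM in aged ad libitum mice and at 33.9, 52.3 and 39.8 CPM in young mice. It averaged 152 ± 59.7 CPM in aged restricted mice and 42.0 ± 9.42 CPM in young mice (SD, n = 3 each). Against young mice Ccl4 rose by 1.85 ± 0.35 on the log2 scale (edgeR adjusted p = 0.00290), and it was called in all 17 alternatives run. Against aged ad libitum mice the log2 fold change was 1.26 ± 0.35 with an edgeR adjusted p of 0.0708. There it was called without the filter on low counts (adjusted p = 0.0125) and without aged restricted replicate 2 (0.0125).

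Ccl5, which is made by effector T cells as well as by myeloid cells, stood at 355, 218 and 255 CPM in aged restricted mice, at 357, 97.9 and 181 CPM in aged ad libitum mice and at 305, 113 and 187 CPM in young mice. All 3 groups overlapped, and replicate 1 was the highest library of each. The log2 fold change was 0.37 (95% interval -0.66 to 1.40) against aged ad libitum mice and 0.45 (-0.57 to 1.48) against young mice. Both intervals hold the fitted change of Ccl2 in the same comparison, so a change of that size was not excluded. The edgeR adjusted p was 0.840 and 0.819 in those comparisons.

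Ccl6 and Ccl9 are chemokines of rodents that lie next to each other and are known from myeloid cells. Ccl6 stood at 1233, 204 and 384 CPM in aged restricted mice, at 224, 41.6 and 161 CPM in aged ad libitum mice and at 53.7, 27.4 and 52.2 CPM in young mice. Aged restricted replicate 1 alone held 1114 of the 2397 counts of Ccl6 in the series. Every restricted library was above every young library, but the lowest restricted library was below the highest aged ad libitum one.

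The log2 fold change of Ccl6 was 2.08 ± 0.85 against aged ad libitum mice (edgeR adjusted p = 0.425) and 3.77 ± 0.93 against young mice (0.149), with 6.41 degrees of freedom in the robust fit. The 95% interval against young mice was 1.54 to 6.00. DESeq2 called Ccl6 against young mice (adjusted p = 7.18e-04), and so did edgeR without robust estimation (2.35e-04). Against aged ad libitum mice Ccl6 was called in 2 of the 17 alternatives. Without aged restricted replicate 1 the log2 fold change was 2.72 against young mice and 1.05 against aged ad libitum mice.

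Ccl9 stood at 195, 51.2 and 64.9 CPM in aged restricted mice, at 38.7, 10.7 and 41.8 CPM in aged ad libitum mice and at 13.2, 9.66 and 10.6 CPM in young mice. It averaged 104 ± 79.3 CPM in aged restricted mice and 11.2 ± 1.84 CPM in young mice (SD, n = 3 each). Against young mice Ccl9 rose by 3.19 ± 0.53 on the log2 scale, a 9.11-fold difference (edgeR adjusted p = 7.88e-04), and it was called in all 17 alternatives. Against aged ad libitum mice the log2 fold change was 1.74 ± 0.49, with an edgeR adjusted p of 0.0820. There it was called without the filter on low counts (adjusted p = 0.00354) and without aged restricted replicate 2 (0.0186). A stretch of 134 bases of the Ccl9 transcript is 97% identical to an Sdhaf2 transcript in GENCODE M21. It lies at bases 1468 to 1601 of 3006. For Ccl6 the closest match, 82.6% over 86 aligned bases with Gm43883, lies at bases 1341 to 1425 of 1440, at the 3′ end that the library kit reads. Whether reads were shared with these genes was not tested.

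The start regions of Ccl6 and Ccl9 are shown because these ligands had the most similar pattern over the libraries. Each line again gives 100 bases before to 50 after the start, 5′ to 3′ on the minus strand, at chr11:83593038-83593187 for Ccl6 and chr11:83578587-83578736 for Ccl9 (RefSeq, GRCm38.p6). Capitals mark matches to TATAAA on either strand, to TGANTCA (the AP-1 motif) and to the kappaB motif.
Ccl6: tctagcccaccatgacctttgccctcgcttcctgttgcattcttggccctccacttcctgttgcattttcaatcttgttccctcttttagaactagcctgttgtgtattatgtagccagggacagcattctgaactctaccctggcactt
Ccl9: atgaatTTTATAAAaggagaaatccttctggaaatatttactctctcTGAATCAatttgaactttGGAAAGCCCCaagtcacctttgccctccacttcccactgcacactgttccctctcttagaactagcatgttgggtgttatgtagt
From base -59 to base 14 of Ccl6, 59 of 74 aligned positions (79.7%) are the same in Ccl9. In Ccl9, TGAATCA begins at base -53 and the kappaB match, on the other strand, at base -35, while TATAAA matches on both strands overlap from base -94. The whole 300-base window of Ccl6 held no match to any of the 5 motifs searched. TGANTCA was found in 7.81% and the kappaB motif in 8.46% of all 32851 windows, on both strands. The other motifs searched, the interferon-stimulated response element (3.44% of windows) and TTCNNNGAA (8.3%), were in none of the 5 ligand windows that the table holds (Ccl3, Ccl6, Ccl8, Ccl9 and Ccl12). A match or its absence in these windows says nothing of binding.

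**Figure D2:**
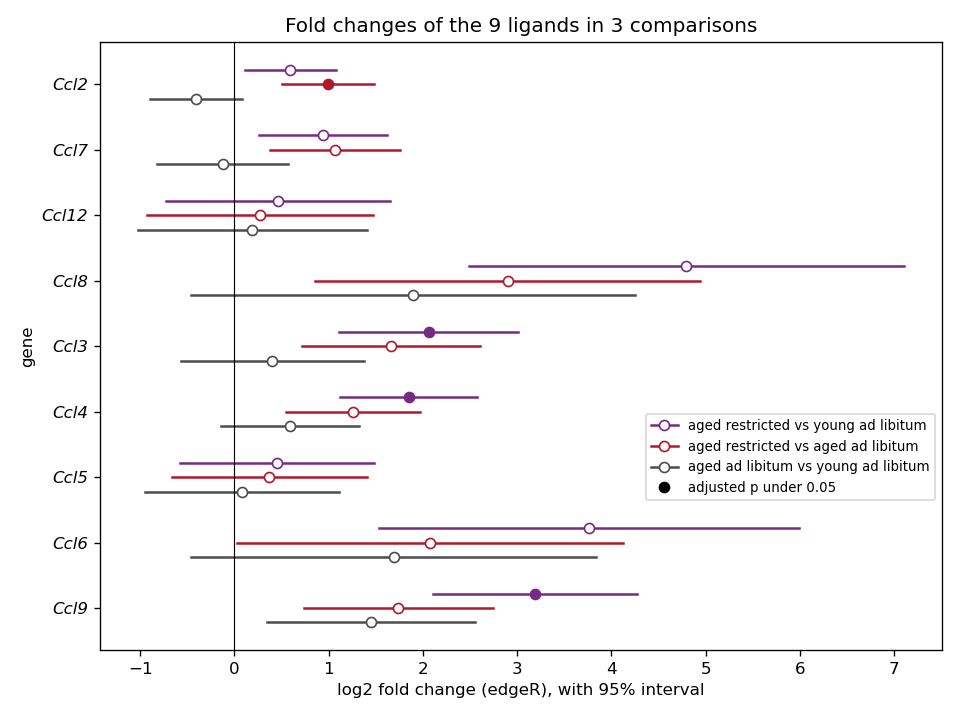
Fitted log2 fold change of each ligand (dots) with its 95% interval (lines) in the 3 comparisons, the first-named group over the second; filled dots have an edgeR adjusted p under 0.05 over all 9009 genes. Ccl8 and Ccl6 have the widest intervals, and the 4 filled dots are Ccl2 against aged ad libitum mice and Ccl3, Ccl4 and Ccl9 against young mice.

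The comparison of aged restricted with aged ad libitum mice changes feeding at the same age. All 9 ligands had a fitted log2 fold change above 0, as did 50% of all tested genes, and their median was 1.26 against 0.00 over all 9009 genes. In 6 of the 9 (Ccl2, Ccl3, Ccl4, Ccl7, Ccl8 and Ccl9) all restricted libraries were above all aged ad libitum libraries, as in 9.26% of all tested genes, while 8.47% of all tested genes lay wholly below and no ligand did. At an unadjusted p under 0.05 in edgeR's test there were 7 ligands, as were 11.7% of all tested genes. DESeq2 called 2, Ccl2 and Ccl3, and 2.14% of the genes to which it gave an adjusted p.

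The comparison of aged restricted with young ad libitum mice changes age and feeding together. All 9 ligands had a fitted log2 fold change above 0 (51.1% of all tested genes did), with a median of 1.85 against 0.02 over all genes. The 7 ligands other than Ccl5 and Ccl12 had every restricted library above every young library, as in 9.82% of all tested genes. EdgeR called 3 ligands and 1.94% of all tested genes. DESeq2 called 5, with Ccl6 and Ccl8 beside those 3, and 2.05% of the genes to which it gave an adjusted p. At an unadjusted p under 0.05 in edgeR's test there were 7 ligands and 11.6% of all tested genes. Both restriction comparisons use the same 3 restricted libraries, and the age comparison shares its libraries with both, so the 3 sets of values are not independent.

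Age alone is addressed by aged ad libitum against young mice. By edgeR's quasi-likelihood test 0 of the 9 ligands were called, in a comparison in which 0.289% of all tested genes were (0.144% higher and 0.144% lower), and DESeq2 called 0 ligands and 0.97% of the genes to which it gave an adjusted p. The fitted log2 fold change was above 0 for 7 of the 9, as for 49.9% of all tested genes, with a median of 0.40 over the ligands. At an unadjusted p under 0.05 in edgeR's test there was 1 ligand, among 10.4% of all tested genes. It was Ccl9, with 30.4 ± 17.1 CPM in aged mice and 11.2 ± 1.84 CPM in young mice (SD, n = 3 each; log2 fold change 1.45, 95% interval 0.34 to 2.56, edgeR adjusted p = 0.294). In none of the 9 were the groups free of overlap, whereas 7.4% of all tested genes had every aged library above every young one and 8.58% had every aged library below. Ccl2 averaged 243 ± 106 CPM in aged mice and 322 ± 35.0 CPM in young mice, with a log2 fold change of -0.41 (95% interval -0.89 to 0.08) and an edgeR adjusted p of 0.589. Ccl6 and Ccl8 had wide intervals, -0.46 to 3.84 and -0.46 to 4.25 on the log2 scale. For every ligand but Ccl2 and Ccl7 the group means ran highest in aged restricted, then aged ad libitum, then young mice, and the last 2 groups overlapped in all 9.

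The make-up of the ligand pool is a description, with no test. A 3′ kit counts transcript ends, so shares of counts need no length correction. Over the 9 ligands together there were 3009, 2334 and 2003 counts in aged restricted mice, 1108, 356 and 791 in aged ad libitum mice and 1094, 774 and 839 in young mice. Ccl2 made up 24.9% ± 10.9 of them in aged restricted mice, 31.5% ± 15.2 in aged ad libitum mice and 43.0% ± 4.51 in young mice (SD, n = 3 each). Ccl8 made up 12.6% ± 2.45, 3.90% ± 3.06 and 1.26% ± 0.897 in the same order. Ccl6 held 24.0% ± 12.0 of the pool in aged restricted mice, 15.0% ± 5.73 in aged ad libitum mice and 5.79% ± 1.33 in young mice, and Ccl5 held 13.1% ± 2.08, 23.6% ± 7.07 and 25.7% ± 7.83. The share of Ccl8 in every restricted library was above that in every other library, and the share of Ccl5 was below.

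**Figure D3:**
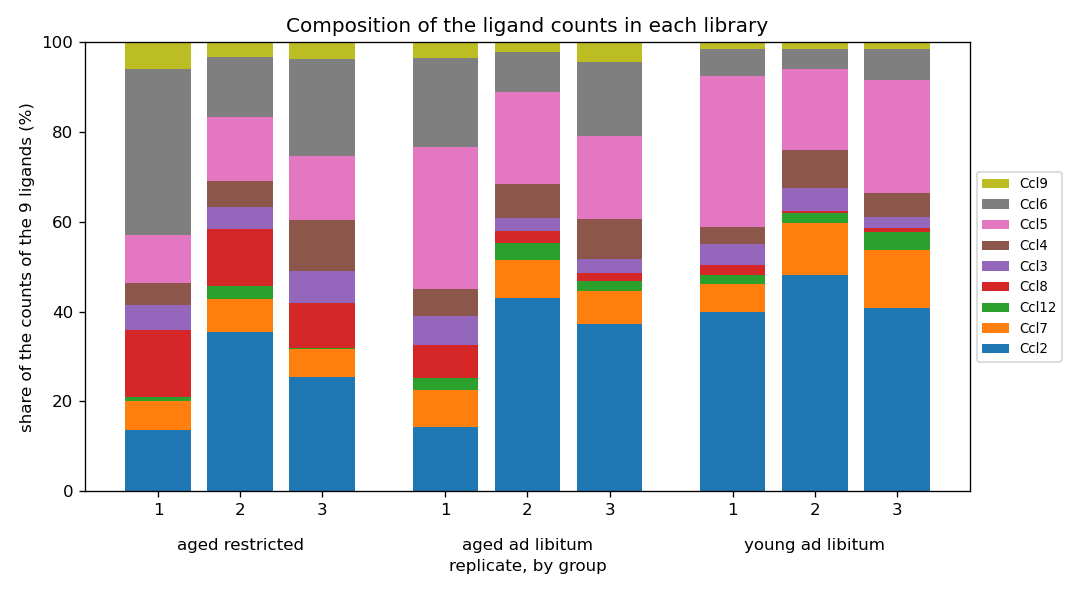
Share of the counts of the 9 ligands taken by each ligand, in percent, 1 stacked bar per library, grouped as aged restricted, aged ad libitum and young ad libitum. Ccl2 holds 40.0% to 48.2% of each young bar, and Ccl8 takes 10.0% to 14.9% of each aged restricted bar, above its share in every other bar.

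The ligands were also set against the counts of the macrophage list in the same library, a description with no test. Of the 20 macrophage genes, all tested, edgeR called 7 that rose in aged restricted against aged ad libitum mice (among them Adgre1, C1qa, C1qb, C1qc, Fcgr3 and Ctss), 8 that rose against young mice and 0 with age (5 at an unadjusted p under 0.05). Of all tested genes 0.688% were called higher, 1.11% were called higher and 0.289% were called in these comparisons, in the same order. DESeq2 called 10, 10 and 0 of the 20. The 9 ligands together had 197 ± 42.3 counts per 1000 counts of this list in aged restricted mice, 184 ± 28.9 in aged ad libitum mice and 151 ± 34.0 in young mice (SD, n = 3 each). These ranges overlapped between all groups.

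On that scale the single ligands parted. Ccl8 had 36.3, 24.0 and 16.1 counts per 1000 macrophage counts in aged restricted mice, 12.6, 4.16 and 3.84 in aged ad libitum mice and 4.29, 0.781 and 1.21 in young mice, again with every restricted library on top. Ccl2 had 33.4, 66.3 and 40.8 in aged restricted mice, 24.4, 70.8 and 81.0 in aged ad libitum mice and 75.2, 58.2 and 59.0 in young mice, so its groups overlapped. Ccl5 had 26.0, 26.6 and 23.0 in aged restricted mice and 53.9, 33.8 and 40.4 in aged ad libitum mice, with every restricted library below. Ccl7 had 13.0 ± 2.77, 14.6 ± 0.959 and 14.8 ± 3.70 in aged restricted, aged ad libitum and young mice (SD, n = 3 each). Against young mice, Ccl3, Ccl4, Ccl6, Ccl8 and Ccl9 had every restricted library above every young library. Between aged and young ad libitum mice, Ccl4, Ccl6 and Ccl9 had every aged library above every young one. The share of all tested genes that separate the groups on this scale was not computed, so these separations have no background beside them. Apoe weighs heavily in the macrophage counts. It held 4928 of 12357 in aged restricted replicate 1 and 884 of 2161 in aged ad libitum replicate 2.

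**Figure D4:**
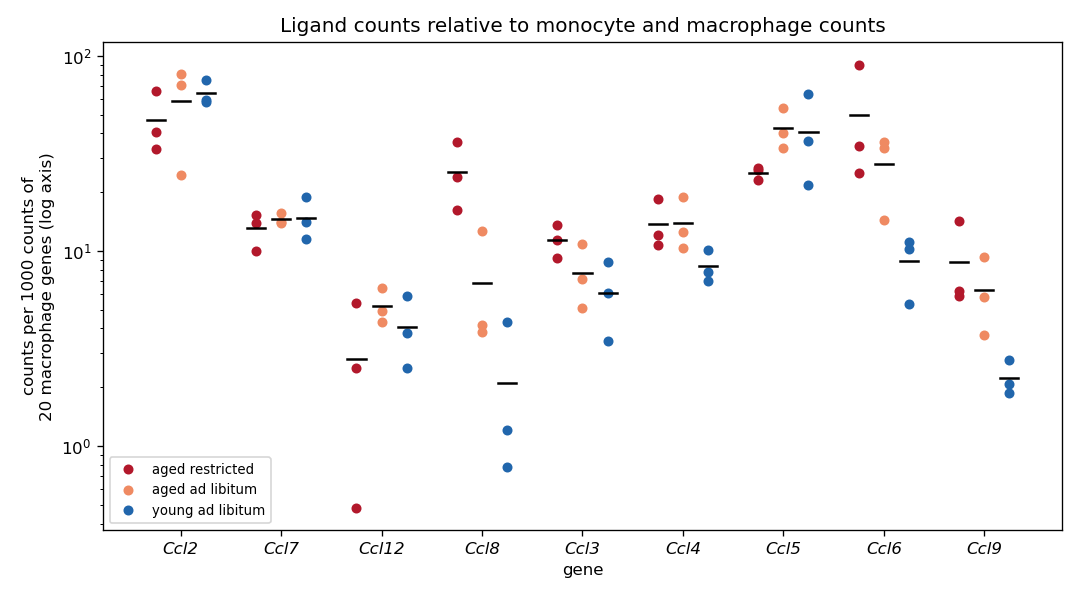
Counts of each ligand per 1000 counts of the 20 monocyte and macrophage genes, on a log axis; dots are libraries, black bars are group means. Ccl8 separates the aged restricted libraries (16.1 to 36.3) from the aged ad libitum libraries (3.84 to 12.6), while Ccl2 and Ccl7 do not separate the groups.

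Some other marker lists differed between the groups too, while the fibroblast, dendritic cell and cytotoxic lists overlapped between all groups. The part of these lists in the ligand levels was not tested. The neutrophil list (10 genes, Ngp and Camp at 0 in all libraries) summed to 89.0 to 123 CPM in aged restricted mice, 46.2 to 97.5 CPM in aged ad libitum mice and 16.2 to 59.8 CPM in young mice. The keratinocyte list (10 genes, none at 0 in all libraries) summed to 195 to 714 CPM, 66.0 to 132 CPM and 6.49 to 12.3 CPM in the same order. Of 8 tested keratinocyte genes edgeR called 7 higher in aged restricted against young mice, 2 higher against aged ad libitum mice and 3 higher with age. Of all tested genes it called 1.11%, 0.688% and 0.144% higher in these comparisons. All 8 had a fitted log2 fold change above 0 in each of them. The red blood cell list (7 genes) summed to 166 to 389 CPM, 45.6 to 95.8 CPM and 0 to 7.37 CPM, the skeletal muscle list (10 genes) to 60.4 to 263 CPM, 16.5 to 53.0 CPM and 4.10 to 16.2 CPM, and the endothelial list (11 genes) to 100.1 to 307 CPM, 246 to 667 CPM and 96.5 to 149.9 CPM. The list of cytotoxic lymphocyte and NK cell genes (12 genes) summed to 171 to 298 CPM, 78.2 to 282 CPM and 56.8 to 278 CPM. The dendritic cell list (10 genes) summed to 27.5 to 68.3 CPM, 12.2 to 38.2 CPM and 31.1 to 73.4 CPM, and the fibroblast list (10 genes, Fap at 0) to 672 to 2349 CPM, 861 to 1246 CPM and 970.0 to 1326 CPM. The mast cell, basophil and eosinophil list stood at or under 19.8 CPM in every library, with Ms4a2, Mcpt8, Epx, Prg2 and Il5ra at 0 in all. The B and plasma cell list stood at or under 7.40 CPM, with Ms4a1 and Mzb1 among the genes at 0 in all.

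**Figure D5:**
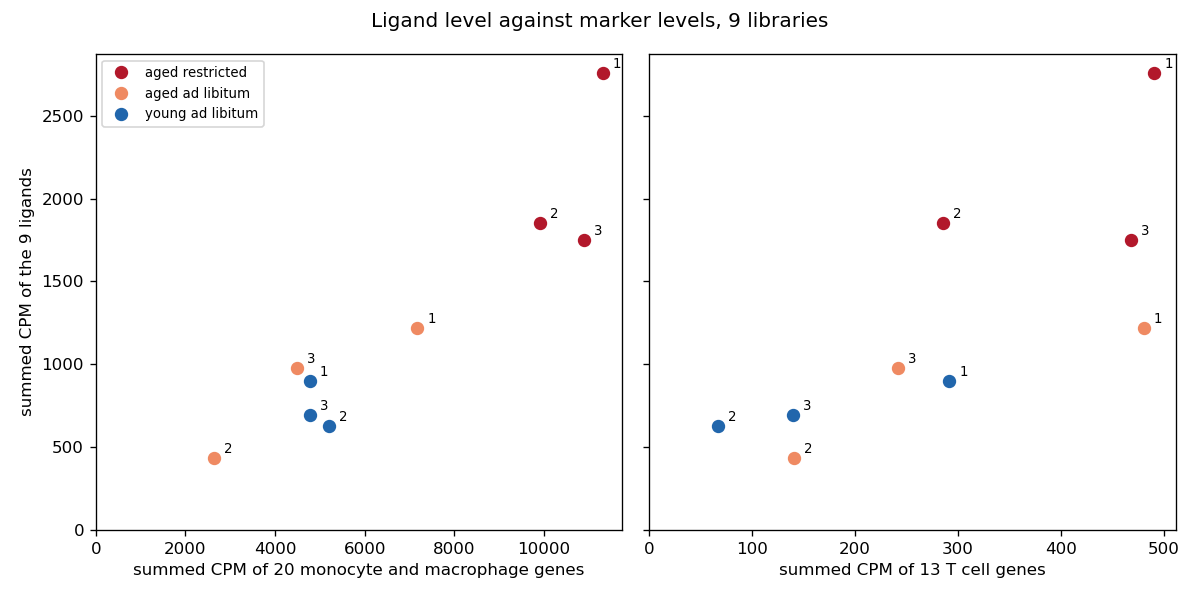
Summed CPM of the 9 ligands against the summed CPM of 20 monocyte and macrophage genes (left) and of 13 T cell genes (right); each dot is a library with its replicate number. The aged restricted libraries, at 1749 to 2756 CPM of ligands, are above all others on both axes of the left panel, while their T cell levels overlap those of aged ad libitum mice.

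Single libraries carried much of the spread. Aged restricted replicate 1 was the highest of its group for 6 of the 9 ligands and had the largest share of mitochondrially encoded counts, 45.7%, against 23.5% and 37.7% in the other restricted libraries. Without that library the log2 fold change of Ccl9 was 0.93 against aged ad libitum mice and 2.37 against young mice. In each ad libitum group, too, replicate 1 was the highest for 6 of the 9 ligands. There it had the lowest mitochondrial share. This was 30.9% against 42.4% and 36.9% in aged ad libitum mice, and 33.7% against 33.8% and 39.3% in young mice. In the aged ad libitum group, 8 ligands had their lowest level in replicate 2, which also had the lowest summed macrophage level of the series, 2640 CPM. The mitochondrial share of that replicate, 42.4%, was the largest of its group.

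Across the 9 libraries the ligands moved together to different degrees. Ccl6 and Ccl9 had a Pearson r of 0.988 on log2 TMM-scaled CPM, and 0.958 after the group means were taken out. The 21 pairs that hold neither Ccl2 nor Ccl12 ran from 0.459 to 0.988, and the 8 pairs with Ccl12 from -0.209 to 0.277. The 8 pairs with Ccl2 ran from -0.01 to 0.541. These are descriptions over 9 libraries that fall into 3 groups and share their scaling, with no test.

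The genes most like each ligand, over the same 9 libraries and among 7604 tested genes of at least 10 CPM, were found by the same Pearson r. For Ccl3 these were Fcgr3 (r = 0.965), an Fc receptor of macrophages, Pirb (0.955) and Ctsb (0.953), a lysosomal protease. For Ccl8 they were Selenop (0.956), a secreted selenium carrier, Smpdl3a (0.946) and Ctsb (0.943). For Ccl9 they were Mylip (0.976), S100a9 (0.968), an alarmin of neutrophils and monocytes, and Smpdl3a (0.954), and for Ccl6 they were Smpdl3a, Mylip and S100a9 (0.947 to 0.966). For Ccl5 they were Pdcd1 (0.952), the PD-1 receptor of activated T cells, Cd52 (0.947), a surface protein of leukocytes, and Rnf114 (0.944). Ccl2 was most like Serp1 (0.965), Tmem37 and Ddx3y. Ccl4 was most like Fxyd5 (0.952), Lgmn (0.937) and Tcn2 (0.932), and Ccl7 was most like Ifi204 (0.961), Sh3bgrl3 (0.950) and Il2rg (0.947). Ccl12 had no gene above 0.903. Each r here is among the highest of a search over all these genes, with the differences between groups left in, and none was tested.

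The receptors of these ligands gave fewer counts. Of 15 CC chemokine receptor genes 5 were deep enough to test, and 7 (Ccr1l1, Ccr3, Ccr4, Ccr6, Ccr8, Ackr2 and Ackr4) had 0 counts in all 9 libraries. Ccr8, the mouse receptor of Ccl8, was among those 7. Against young mice edgeR called 2 of the 5 higher in aged restricted mice, Ccr2 and Ccrl2, and 1.11% of all tested genes. The fitted log2 fold change was above 0 for 4 of the 5. Ccr2, the receptor of Ccl2, Ccl7 and Ccl12, averaged 74.6 ± 23.8 CPM in aged restricted mice, 42.2 ± 20.1 CPM in aged ad libitum mice and 25.1 ± 11.1 CPM in young mice (SD, n = 3 each). Its edgeR adjusted p was 0.0490 for aged restricted against young mice, with a log2 fold change of 1.57.

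Ccrl2, an atypical receptor that binds chemerin and does not itself drive migration, averaged 76.7 ± 33.7, 22.6 ± 10.6 and 6.48 ± 4.60 CPM in aged restricted, aged ad libitum and young mice (SD, n = 3 each). It rose by 3.54 ± 0.56 on the log2 scale against young mice (edgeR adjusted p = 4.30e-04). Ccr1 stood at 45.1 ± 12.5, 22.1 ± 18.4 and 13.6 ± 5.97 CPM in the same order and was not called in any comparison by edgeR. Between aged restricted and aged ad libitum mice, and with age, edgeR called 0 of the 5 receptors (1 each at an unadjusted p under 0.05, and 0 by DESeq2). Of all tested genes edgeR called 0.944% and 0.289% in these comparisons, and 11.7% and 10.4% were at that unadjusted p.

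Of 22 genes of NF-kappaB, AP-1 and their feedback, all tested, edgeR called 7 that rose in aged restricted against young mice, 2 that rose in aged restricted against aged ad libitum mice and 1 that rose with age, and none that fell. The shares of all tested genes called higher were 1.11%, 0.688% and 0.144% in the same order, and DESeq2 called 8, 2 and 1 of the 22. The 7 were Nfkbiz and Tnfaip3, which are NF-kappaB targets that feed back on it, the AP-1 subunits Fos and Fosb, the mRNA decay factor Zfp36l1, the phosphatase gene Dusp1 and Ier3. The 2 were Dusp1 and Zfp36, whose product speeds the decay of cytokine and chemokine mRNAs. Zfp36 averaged 204 ± 85.0 CPM in aged restricted mice and 86.0 ± 22.9 CPM in aged ad libitum mice (SD, n = 3 each; log2 fold change 1.24, edgeR adjusted p = 0.0389). Nfkbia, the inhibitor of NF-kappaB, stood at 710.2 ± 144, 548 ± 30.9 and 489 ± 76.7 CPM in aged restricted, aged ad libitum and young mice and was not called. The gene called with age was Fosb. Of 20 interferon response genes edgeR called 1, and DESeq2 called 1 higher in each of the 3 comparisons. Of the genes to which DESeq2 gave an adjusted p, it called 0.97% with age, 2.14% against aged ad libitum mice and 2.05% against young mice. The gene called by edgeR was Mx1, an antiviral GTPase gene, which rose in aged restricted against young mice (log2 fold change 3.07, edgeR adjusted p = 0.00674).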

How the data were processed

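The authors' deposited file holds raw read counts per gene, 1 column per library, for 9 libraries made with a 3′ mRNA kit. The submitters' processing notes name featureCounts, STAR, Trim Galore and the build GRCm38 (mm10). Versions, and how strand, multiply matching reads and molecular identifiers were handled, are not given in the sources used here, so p-values and intervals treat PCR copies as reads. All 9 libraries entered 1 edgeR 4.0.16 model (R 4.3.3) with the group as its only term, which leaves 6 residual degrees of freedom. It used filterByExpr with a minimum count of 10, TMM scaling and the quasi-likelihood test with robust estimation. Benjamini-Hochberg adjustment ran over 9009 genes, with a threshold of 0.05. The SE is the log2 fold change divided by the square root of F, and the 95% interval uses the t quantile of the gene's degrees of freedom. Levels of single genes are TMM-scaled CPM, and summed levels are CPM of the library total. Alternatives, among them DESeq2 1.42.0, are listed at the end.

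The 9 ligands, the 19 gene lists and the rule for named genes (all ligands; of other lists up to 4 genes with the smallest p-values; 3 genes most like each ligand) were chosen with earlier results of these data known. Other genes named as called were named to complete a count, and Nfkbia as an inhibitor of the pathway, after their values were seen. Some genes of the lists are not reported here by name. The test was also run on simulated data with 200 changed genes, and the share of these that it recovered is not reported here. No library was a copy of another of its group, since chi-square over its degrees of freedom was 5.65 or more. Promoter windows came from RefSeq (5 of 9 ligands matched), and transcripts were compared with BLAST 2.17.0 (at least 70 aligned bases).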

Additional observations from a re-analysis of the deposited data

How the results depend on the processing

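Of the 459 alternative fold changes of the 9 ligands (17 settings, 3 comparisons), 411 kept their direction and their side of the threshold, 27 crossed to called, 12 lost the call and 9 changed sign. The main fit called 1 ligand against aged ad libitum mice, 3 against young mice and 0 with age. Most of the 411 were therefore uncalled in the main fit and stayed so. Every change of sign came from leaving out 1 library, and the cause was not tested. With age, the range over left-out libraries was -0.40 to 0.77 for Ccl3, -0.55 to 0.50 for Ccl5, -0.46 to 0.13 for Ccl7 and -0.055 to 0.57 for Ccl12. The sign turned for Ccl3, Ccl5 and Ccl12 (-0.017) without aged ad libitum replicate 1, for Ccl5 (-0.21) and Ccl12 without young replicate 2, and for Ccl7 without aged ad libitum replicate 2 or young replicate 3 (0.09). Ccl12 ran from -0.25 to 0.76 for aged restricted against aged ad libitum mice and from -0.065 to 0.95 against young mice, and both turned without aged restricted replicate 2.

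Ligands called numbered 1 for aged restricted against aged ad libitum mice. They were 0 with library totals and with only the 2 groups in the model, 2 with DESeq2, 2 without robust estimation (a setting added after the data were seen), 5 without the filter on low counts, and 0 to 4 when 1 library was left out. Against young mice the 3 called ligands became 5 with DESeq2 and 5 without robust estimation, and 2 to 4 when 1 library was left out. With age they stayed at 0 when 1 library was left out.

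Over all genes, the 26 called with age became 91 with DESeq2, 126 without the filter, 58 with 2 groups and 2 to 91 when 1 library was left out. The 85 called for aged restricted against aged ad libitum mice became 50 with library totals, 159 with DESeq2, 224 without the filter, 43 with 2 groups and 35 to 157 when 1 library was left out. The 175 called against young mice became 286 without the filter and 98 to 242 when 1 library was left out.

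Replicate numbers are shared by the groups, and they were not taken to pair the libraries, since the labels do not say so and the correlations were low. Deviations of same-numbered libraries correlated at -0.0281 to 0.0772 over 9 pairs, and in 13 of 18 cases the best match had the same number, a hint from the data that is not part of the design. With the replicate block, 49 genes were called with age and 133 for aged restricted against aged ad libitum mice. The ligands called under the block were 2 with age (Ccl6 and Ccl8), 5 against aged ad libitum mice and 5 against young mice.

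Scaling by library totals moved no ligand level by more than 1 SD, while leaving mitochondrially encoded counts out of the total raised 18 of 27 group levels by more than that. Depth limits Ccl8, Ccl9 and Ccl12 most, whose young libraries held 5 to 34 counts.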

Other observations

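Ligands of the CXC, CX3C and XC families were measured in the same libraries. Of 17 such genes 10 were deep enough to test, and edgeR called 0 of them in each of the 3 comparisons. At an unadjusted p under 0.05 in edgeR's test there were 3 with age, 5 for aged restricted against aged ad libitum mice and 2 for aged restricted against young mice. Of all tested genes 10.4%, 11.7% and 11.6% were, in the same order, and edgeR called 0.289%, 0.944% and 1.94%. DESeq2 called 1 lower with age, and 2 higher and 0 higher in the other comparisons. It called 0.97%, 2.14% and 2.05% of the genes to which it gave an adjusted p. Xcl1, a chemokine of activated T and NK cells, had 74 counts in all in aged restricted mice, 4 in aged ad libitum mice and 89 in young mice. Its edgeR adjusted p was 0.0584 for aged restricted against aged ad libitum mice and 0.0771 for age. Cxcl9, an interferon-induced ligand that draws T cells, averaged 143 ± 41.6, 63.3 ± 15.5 and 131 ± 42.8 CPM in aged restricted, aged ad libitum and young mice (SD, n = 3 each). Its edgeR adjusted p was 0.0643 for aged restricted against aged ad libitum mice.

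Of 8 tested myeloid cytokine and growth factor genes edgeR called 1, against young mice, where it called 1.11% of all tested genes higher. DESeq2 called 1 higher against young mice and 1 higher for aged restricted against aged ad libitum mice, where 5 were at an unadjusted p under 0.05 in edgeR's test. Over all genes DESeq2 called 2.05% and 2.14% of those to which it gave an adjusted p, and 11.7% of tested genes were at that unadjusted p. The gene called by edgeR was Il1b, the gene of interleukin 1 beta. It averaged 425 ± 159.9 CPM in aged restricted mice and 140 ± 25.5 CPM in young mice (SD, n = 3 each) and rose by 1.60 ± 0.29 on the log2 scale (edgeR adjusted p = 0.00252). Tnf had 113 counts in all in aged restricted mice, 8 in aged ad libitum mice and 43 in young mice, with an edgeR adjusted p of 0.0567 for aged restricted against aged ad libitum mice.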
